A study of Mus musculus with 20 samples.

Results

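The snoRNA host genes described here are Gas5 and 9 genes of the Snhg (small nucleolar RNA host gene) series, namely Snhg1, Snhg3, Snhg4, Snhg5, Snhg6, Snhg8, Snhg9, Snhg11 and Snhg12. They were chosen by symbol, with earlier results of these data known. Counts of RNA-Seq and POL-Seq reads were found for 8 of the 10, among 14924 genes in the table, and Snhg1 and Snhg11 were not analysed at this level. All 8 passed the filter on low counts, which kept 14906 genes. Counts of sequenced 3′ ends were found for 7 of the 10 (Gas5, Snhg3, Snhg5, Snhg6, Snhg8, Snhg9 and Snhg12), among 9621 genes.

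A snoRNA host gene makes a long RNA whose introns hold small nucleolar RNAs, the guides that direct the chemical modification and processing of ribosomal RNA. Box C/D snoRNAs guide 2′-O-methylation and box H/ACA snoRNAs guide pseudouridylation. The snoRNA is trimmed out of the excised intron, and the spliced exons leave as a separate RNA with short open reading frames only. Several such RNAs, Gas5 among them, are known to start with the pyrimidine tract of 5′ TOP transcripts, to enter ribosomes and to be degraded by nonsense-mediated decay, the pathway that removes RNAs with an early stop codon.

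The cells were NSC-34, a mouse hybrid line of neuroblastoma and motor neuron-enriched spinal cord cells. Human HuD (ELAVL4), a neuronal RNA-binding protein, was expressed in them as a His- and HA-tagged protein from an inducible lentiviral construct. The HuD cells of the RNA-Seq, POL-Seq and 3′ end libraries had 2 µg/ml of tetracycline for 48 h. Whether their control cells had it too is not given in the labels. The HuD and the control cells of CRAC, the crosslinking experiment that maps where HuD touches RNA, both had 10 µg/ml for 24 h. These doses and times are the labels' values. Trex cells, which carry only the repressor, are the CRAC control in the study's text. It does not name the line of the other controls, which are titled CTRL cells. The study's text names doxycycline in places and in one of them gives CRAC the dose and time of the other libraries. The transgene acts in a line and not in an animal, and how many clones were used is not given in the sources used here. Polysomal RNA (POL-Seq) came from the polysomal fractions of a sucrose gradient and total RNA (RNA-Seq) from all fractions of the same kind of cytoplasmic lysate, both of them poly(A)-selected. Each of the 4 groups (total or polysomal RNA, control or HuD cells) had 2 libraries, 3′ end sequencing had 3 libraries of each condition, and CRAC had 3 of each, which were pooled in the file.

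Total counts ranged from 21296012 in the second polysomal control library to 36284728 in the first polysomal HuD library, and those of the 3′ end libraries from 12986862 to 15751036. The 2 polysomal control libraries differed most between replicates, by a median of 0.20 on the log2 scale over all genes tested, against 0.10 to 0.12 in the other groups. Elavl4 had 78.3 and 97.4 CPM (counts scaled to the TMM-adjusted library size) in total RNA of control cells and 237 and 212 CPM in total RNA of HuD cells. Its log2 difference was 1.35 (SE 0.15) with an edgeR adjusted p = 0.0866, so this mouse gene was higher in every HuD library but did not pass the threshold of 0.05. The transgene is a human cDNA and the reads were aligned to the mouse genome, and what part of this row comes from the transgene was not tested. Of 13 motor neuron and neuronal markers 12 had counts and summed to 2761 to 2972 CPM per library, with Mnx1 absent, and of 11 glial, fibroblast and immune markers 4 had counts and summed to 15.2 to 19.2 CPM. The neuronal markers were uneven, since Prph alone had 1031 to 1355 CPM per library and Stmn2 had 0.213 to 0.419 CPM.

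The RNAs of the 5′ TOP class begin with a C followed by pyrimidines, so the annotated starts are shown first. The RefSeq table (GRCm38.p6) held 9 starts of 8 of the genes, and Snhg4 and Snhg6 had no entry. Each line below gives the 10 bases before the start and the 20 from it, with the run of pyrimidines nearest to the start in capitals, and it shows the genes in which a C and at least 4 more pyrimidines (motif C then C or T) began within 10 nt of the start on the coding strand.

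Gas5, chr1:161035156-161035185, + strand: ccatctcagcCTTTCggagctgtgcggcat
Snhg8, chr3:123508317-123508346, - strand: gttcagaagtCTCTTTggctgcgatccgcc
Snhg12, chr4:132308668-132308697, + strand: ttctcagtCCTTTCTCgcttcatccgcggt
Snhg3, chr4:132353667-132353696, - strand: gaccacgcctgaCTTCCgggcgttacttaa
Snhg5, chr9:88522878-88522907, - strand: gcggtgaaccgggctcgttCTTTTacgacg
Snhg9, chr17:24719946-24719975, - strand: aCTTTCCCTCgccgaagccgcgccctacac

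In Gas5 and Snhg8 the tract lay exactly at the annotated start, which made 2 of 9 starts (22.2%). The share was 2.51% of all 32851 RefSeq starts and 18.8% of 64 starts of cytosolic ribosomal protein genes. Within 10 nt of the start the tract was found at 6 of 9 starts, against 30.7% of all starts and 54.7% of those of ribosomal protein genes. The second annotated start of Gas5 and those of Snhg1 and Snhg11 held no such tract in this window.

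In GENCODE vM21, where Snhg4 was not analysed, the exons of Gas5 covered 3760 nt, retained introns included, and those of Snhg9, the shortest, 183 nt. Gas5 held 10 snoRNA entries (2 of them overlapping entries named Snord80), Snhg1 held 8 and Snhg12 held 5, 2 of which were overlapping entries named Snora16a. Snhg3 held Snora73a and Snora73b, Snhg5 held Snord50a and Snord50b, and Snhg11 held 2. Snhg6 held Snord87, Snhg8 held Snora24 and Snhg9 held Snora78, 1 each. For the 7 genes that had both counts and an annotation, the stop codon that followed the first AUG lay over 50 nt before the last exon junction in 46 of 54 spliced transcripts (85.2%), an arrangement known to trigger nonsense-mediated decay. The share was 72.8% of 2197 transcripts of the 967 other long noncoding genes with counts. By gene the counts were 24 of 25 in Gas5, 9 of 10 in Snhg12, 5 of 6 in Snhg5, 4 of 5 in Snhg6 and 2 of 2 in Snhg8. They were 2 of 5 in Snhg3 and 0 of 1 in Snhg9. The transcripts of a gene share most of their sequence and are not independent, and no test was made of these shares. Spliced here means more than 1 exon, and most of the Gas5 and some of the Snhg5 transcripts are annotated as retained introns. The shares thus do not describe fully spliced RNAs alone. The reading frame from the first AUG was also short, with a median of 1 codon in Snhg8 and 4 codons in Snhg5.

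On polysomes, every one of the 8 snoRNA host genes was lower than in total RNA. In the comparison over both conditions all 8 fell at an edgeR adjusted p under 0.05, where 1.93% of the 14906 genes tested were lower and 0.429% were higher. The members' median log2 difference was -1.03, and that of all genes was 0.01. In all 8 the 4 polysomal libraries lay below the 4 total libraries, which was true of 8.76% of all genes. These differences are relative to the rest of each library, since how much RNA the polysomes held was not measured. In bulk RNA, a smaller share of an RNA on ribosomes cannot be told apart from a difference in how the fractions were recovered.

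**Figure D1:**
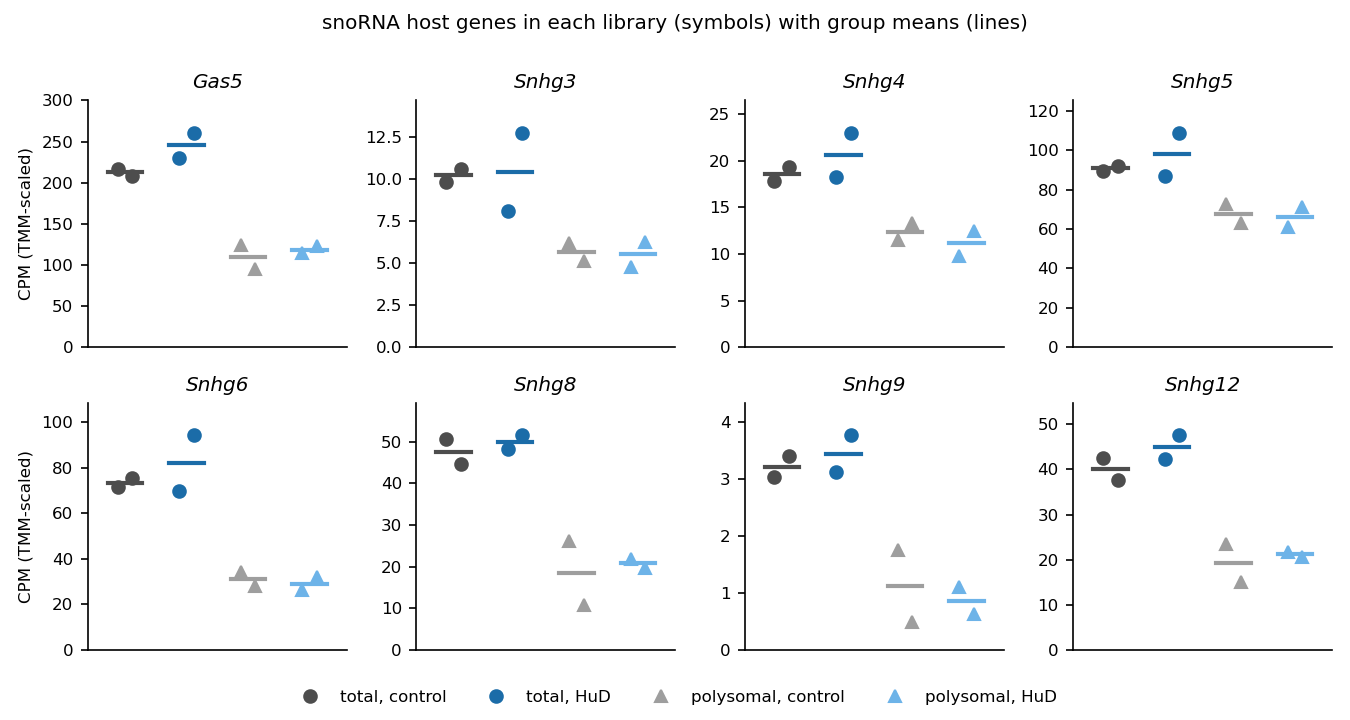
CPM of each of the 8 snoRNA host genes (vertical axes from 0) in the 8 RNA-Seq and POL-Seq libraries. Circles are total RNA, triangles polysomal RNA, grey control and blue HuD cells, and lines are means of 2 libraries. In every panel all triangles lie below all circles.

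Snhg9, the host of Snora78, was the lowest on polysomes. It had 3.03 and 3.40 CPM in total RNA of control cells, 3.13 and 3.77 CPM in total RNA of HuD cells, 1.76 and 0.481 CPM in polysomal RNA of control cells and 1.10 and 0.625 CPM in polysomal RNA of HuD cells. The lowest total library was 1.72-fold above the highest polysomal library. The log2 difference was -1.70 (95% confidence interval -2.37 to -1.02, edgeR adjusted p = 0.0270), which left 30.9% of the total level. Its counts were small, from 10 to 58 reads in a polysomal library.

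Snhg6, the host of the box C/D RNA Snord87, had the second largest difference and the smallest p-value of the 8. Its total libraries held 71.4 and 75.6 CPM in control cells and 69.9 and 94.3 CPM in HuD cells, and its polysomal libraries held 34.1 and 27.9 CPM in control cells and 26.2 and 32.1 CPM in HuD cells. The lowest total library was 2.05-fold above the highest polysomal one, the widest gap among the 8. The log2 difference was -1.37 (95% confidence interval -1.62 to -1.11, edgeR adjusted p = 0.000912).

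Snhg8, which carries the H/ACA RNA Snora24, had 50.6 and 44.6 CPM in total RNA of control cells, 48.3 and 51.5 CPM in total RNA of HuD cells, 26.2 and 10.9 CPM in polysomal RNA of control cells and 21.9 and 19.7 CPM in polysomal RNA of HuD cells. The polysomal control libraries were apart and the other pairs close. The log2 difference was -1.30 (95% confidence interval -1.76 to -0.83, edgeR adjusted p = 0.0175).

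Snhg12, the host of Snora16a, Snora44, Snora61 and Snord99, had 42.6 and 37.7 CPM in total RNA of control cells, 42.4 and 47.6 CPM in total RNA of HuD cells, 23.5 and 15.1 CPM in polysomal RNA of control cells and 21.8 and 20.7 CPM in polysomal RNA of HuD cells. Its polysomal level was 47.9% of the total level. The log2 difference was -1.06 (95% confidence interval -1.34 to -0.78, edgeR adjusted p = 0.00398).

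Gas5 (growth arrest-specific 5), known to build up in growth-arrested cells, had the most counts of the 8. It had 217 and 208 CPM in total RNA of control cells, 229.7 and 261 CPM in total RNA of HuD cells, 124 and 95.4 CPM in polysomal RNA of control cells and 114 and 123 CPM in polysomal RNA of HuD cells. Its polysomal level was thus 50.0% of its total level. The log2 difference was -0.999 (95% confidence interval -1.20 to -0.80, edgeR adjusted p = 0.000947).

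Snhg3, the host of both Snora73 RNAs, which act in the cleavage of ribosomal RNA precursors, had 9.84 and 10.6 CPM in total RNA of control cells, 8.09 and 12.8 CPM in total RNA of HuD cells, and 4.76 to 6.28 CPM in the 4 polysomal libraries. Its log2 difference was -0.88 (95% confidence interval -1.24 to -0.52, edgeR adjusted p = 0.0284). Of the exonic length of Snhg3, 13.7% is shared with Rcc1 on the same strand and 71.5% with Gm17300 on the other, and 14 nt of Snhg9 lie opposite Rps2 and 127 nt of Snhg6 opposite Mcmdc2. Which strand was counted is not given in the sources used here. Reads of these stretches could therefore be missing from the counts or belong to the partner gene.

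Snhg4 and Snhg5 were the least depleted. Snhg4 had 17.8 to 23.0 CPM in the 4 total and 9.82 to 13.3 CPM in the 4 polysomal libraries, with a log2 difference of -0.75 (95% confidence interval -0.99 to -0.50, edgeR adjusted p = 0.0131). Snhg5, the host of both Snord50 RNAs, had 89.5 and 92.2 CPM in total RNA of control cells, 86.95 and 109 CPM in total RNA of HuD cells, 72.5 and 62.9 CPM in polysomal RNA of control cells and 61.2 and 71.3 CPM in polysomal RNA of HuD cells. Its lowest total library was 1.20-fold above its highest polysomal library, the narrowest gap of the 8. Its log2 difference was -0.49 (95% confidence interval -0.70 to -0.29, edgeR adjusted p = 0.0289), which left 71.0% of the total level. The intervals of Snhg5 and Snhg6 did not overlap, while the neighbours in the order from Snhg9 to Snhg5 all had overlapping intervals.

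**Figure D2:**
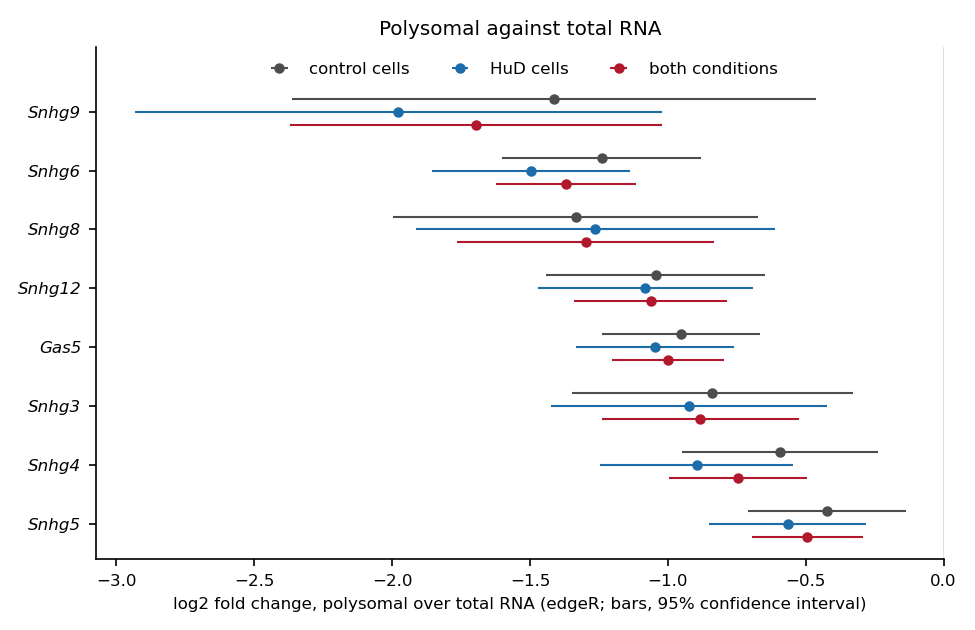
Log2 fold change of polysomal over total RNA for each snoRNA host gene, with 95% confidence intervals of the edgeR fit, in control cells (grey), HuD cells (blue) and both (red). Every interval lies below 0, and those of Snhg9 and Snhg8 are the widest.

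Because the order of expression depends on transcript length, levels were compared between genes per kilobase of exon (FPKM, from TMM-scaled counts). Snhg4 had no exon length and was left out. In total RNA of control cells Snhg6 was highest at 64.1 ± 2.57 FPKM (SD, n = 2). Gas5 followed at 56.5 ± 1.74, Snhg8 at 55.8 ± 4.97 and Snhg5 at 52.5 ± 1.10 FPKM. The libraries of Gas5 (55.3 and 57.7 FPKM) lay above those of Snhg5 (51.7 and 53.3 FPKM). Snhg8 could not be placed between these genes, since its libraries overlapped those of both. Snhg9 at 17.6 ± 1.42 and Snhg12 at 16.7 ± 1.44 FPKM overlapped as well, and Snhg3 was lowest at 10.4 ± 0.551 FPKM. The overlaps of Snhg3 with other genes, given above, limit what its level shows. In polysomal RNA of control cells Snhg5 led at 39.1 ± 3.91 FPKM, ahead of Gas5 at 29.2 ± 5.39 and Snhg6 at 27.0 ± 3.87 FPKM. In Gas5, Snhg3, Snhg5, Snhg8 and Snhg12 the exon length includes stretches around a snoRNA that other transcripts of the gene splice out, so that their FPKM and the order above depend on which transcripts are counted as exonic. Per the study's methods, the reads were counted on an older GENCODE release than vM21, which gave the lengths. The exons counted and those measured can therefore differ.

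The depletion was present in each condition by itself, with fewer genes past the threshold. In control cells all 8 were lower with no overlap of the libraries, as were 20.1% of all genes. Gas5 at -0.95 (edgeR adjusted p = 0.0289) and Snhg6 at -1.24 (edgeR adjusted p = 0.0270) passed there, on the log2 scale, where 0.174% of all genes were called lower and 0.0% higher. In HuD cells all 8 were again below, as were 24.5% of all genes. Snhg6 at -1.50 (edgeR adjusted p = 0.00798), Gas5 at -1.05 (0.0115), Snhg12 at -1.08 (0.0344) and Snhg4 at -0.90 (0.0496) passed, against 0.490% of all genes. With a replicate block all 8 were called lower in HuD cells, where 1.78% of all genes were called lower. The edgeR fit to the 4 control libraries alone called 0 of the 8, where 0.0% of genes were called lower. At an unadjusted p under 0.05, 8 of the 8 were lower in it, as were 3.82% of all genes.

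Single libraries decided part of these calls. Over both conditions, Gas5, Snhg6 and Snhg12 passed whichever library was left out. Without the first polysomal HuD library, the second total control library or the second total HuD library, 3 of the 8 passed, where 0.389%, 0.663% and 0.523% of all genes were called lower. Without the second polysomal HuD library or the first total control library 4 passed, against 0.583% and 0.536% of all genes, and without the first total HuD library 6 passed, against 0.691%. Without the first polysomal control library all 8 passed, where 11.2% of all genes were called lower, and without the second all 8 passed, against 2.49%. All 8 stayed lower on polysomes in each of these fits. With 1 library of a group left out, the one that remains is assumed to vary like the other groups.

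Other genes of the pathway were compared with the same fit. In it edgeR called 1.93% of all genes lower and 0.429% higher, which holds for the next paragraph too. DESeq2 called 728 genes either way. Among 12 other noncoding snoRNA hosts, 8 had counts. Of these, 5 fell in edgeR and 6 in DESeq2, with a median of -0.62 on the log2 scale. Snhg15 (listed as Gm11974) at -1.22, Snhg20 at -1.21, Zfas1 (listed as 1500012F01Rik) at -1.12, Snhg16 (listed as 1810032O08Rik) at -0.62 and Snhg17 at -0.50 were those that fell in edgeR. Snhg14 at -0.05 and Meg3 at -0.15 were nearest to 0. GENCODE vM21 has 0 snoRNA entries inside Snhg15, Snhg17 and Snhg20, so their place in this list does not rest on that annotation. Among 40 protein coding hosts, which carry snoRNAs in the introns of translated mRNAs, 8 fell in edgeR and 15 in DESeq2. None rose in either, and the median was -0.18. In 18 of the 40 the polysomal libraries all lay below the total libraries, which was true of 8.76% of all genes. The lowest were Rps12 at -1.38 and Rpsa at -1.28, both ribosomal proteins, and the highest were Ncl (nucleolin) at 0.29 (edgeR adjusted p = 0.428) and the translation factor Eif4g2 at 0.23 (0.276).

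Of 15 mRNAs of the 5′ TOP class outside the ribosome 2 fell in edgeR, the poly(A)-binding protein Pabpc1 by 0.80 and Tpt1 by 0.43 on the log2 scale. DESeq2 called 4 of the 15 lower. Nap1l1 at 0.18 and Npm1 at 0.22 were highest and did not pass. Of 12 long noncoding RNAs without snoRNAs 4 fell in edgeR and 5 in DESeq2, with a median of -0.48. H19, an imprinted RNA, was lowest at -1.53, followed by Malat1 at -0.94 (edgeR adjusted p = 0.267), which ranged from 74.9 to 587 CPM among the 4 total libraries. Oip5os1 (listed as 1700020I14Rik) at -0.22 and Tug1 at 0.11 were highest and did not pass. Read by exon length and type, with the members left out, 6.10% of 1017 long noncoding genes and 1.34% of 12947 protein coding genes were lower, and 4.27% of 1031 genes with exons under 1000 nt.

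The proteins that act on snoRNAs and on decay showed other values. None of the 19 snoRNP proteins and assembly factors passed in edgeR, where 1 was lower and 3 higher at an unadjusted p under 0.05, and DESeq2 called 1 lower. At an unadjusted edgeR p under 0.05, 11.8% of all genes were lower and 9.53% higher, here and for the next lists. The extremes of the snoRNP proteins and assembly factors were Nop56 at -0.35 and Nop10 at -0.10 against Nop58 at 0.22 and Gar1 at 0.20, and their median was 0.06. None of the 18 nonsense-mediated decay factors passed in edgeR (0 lower and 4 higher unadjusted) or in DESeq2, with a median of 0.04 and extremes of Smg8 and Dhx34, both at -0.13, against Smg1 at 0.24 and Magoh at 0.23. None of 8 mRNAs known as targets of that decay passed in edgeR (2 lower unadjusted, 1 lower in DESeq2), from Ddit3 at -0.39 and Atf4 at -0.23 to Trib3 at -0.02 and Asns at 0.12.

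Among 12 neuronal markers, Snap25, a synaptic vesicle fusion protein, rose by 0.38 (edgeR adjusted p = 0.0199). Map2 at 0.25, Prph at -0.18 and Stmn2 at -0.18, the last with 7 to 14 reads per library, did not pass. Of the 4 glial and immune markers with counts, among them Cd68 at -1.06, Gfap at -0.10 and Mbp at -0.01, none passed in edgeR or in DESeq2. Of these 4, 1 was lower at an unadjusted edgeR p under 0.05, as were 11.8% of all genes.

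**Figure D3:**
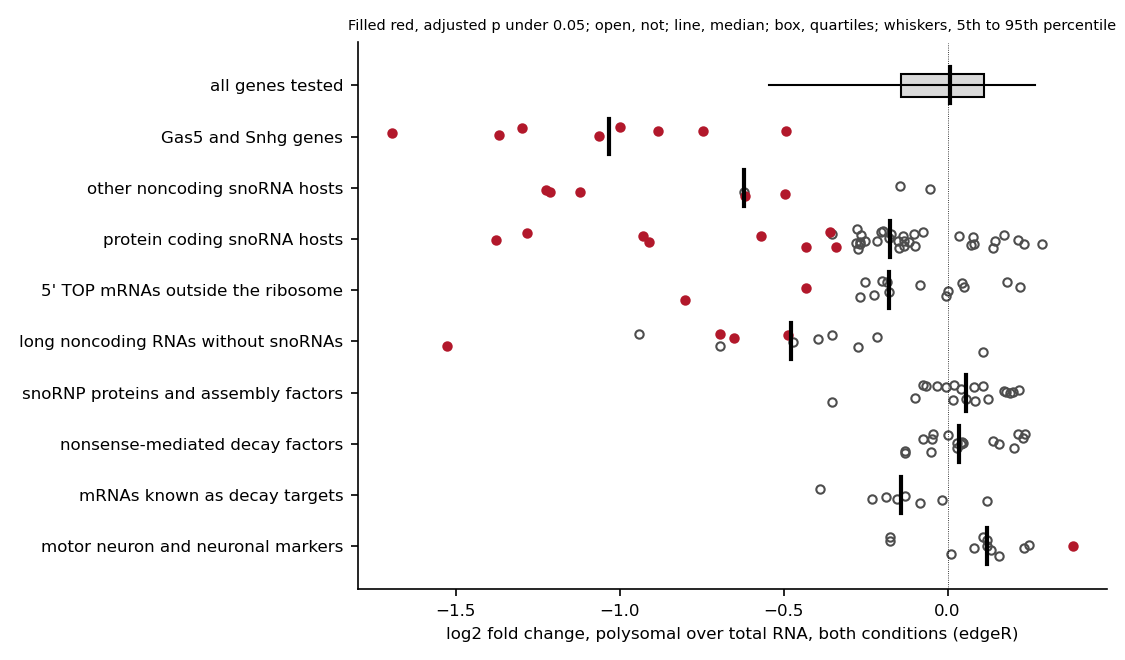
Log2 fold change of polysomal over total RNA over both conditions for each gene of the lists (points, jittered vertically), filled where the edgeR adjusted p is under 0.05. The top box gives all 14906 genes, with a median of 0.01, and the Gas5 and Snhg genes have a median of -1.03.

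By the pattern over the 8 libraries, the genes most like the mean of the members were 1110038B12Rik (Pearson r = 0.994), Myl6b (0.993), Gm11974 (0.991), 2700038G22Rik (0.991) and 2900052L18Rik (0.989). The r is over 8 libraries that share 4 groups and is a description. All but Myl6b, a myosin light chain, are annotated as noncoding, and Gm11974 is Snhg15, which is in the list of other hosts. The polysomal libraries of 1110038B12Rik held 31.0 to 47.2 CPM and the total ones 76.2 to 91.0 CPM.

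Rows of snoRNA genes inside the members were also in the table and were looked at after their values were seen. The libraries were poly(A)-selected and are not made to hold mature snoRNAs, and reads of such a row can come from the snoRNA or from an unspliced host, which cannot be told apart. Snora73b, in an intron of Snhg3, had 2.27 to 3.00 CPM in total and 0.888 to 1.53 CPM in polysomal RNA, and fell by 1.23 on the log2 scale (SE 0.20, edgeR adjusted p = 0.0199). Snora78, in the intron of Snhg9, had 0.816 to 1.14 CPM in total and 0.144 to 0.430 CPM in polysomal RNA, and fell by 1.61 (SE 0.29, edgeR adjusted p = 0.0294). Both of these rows were thus lower on polysomes, and so were their hosts. Of the 86 rows of snoRNA genes tested, 12 were called lower and 0 higher, against 287 of 14906 genes called lower. The median log2 difference of these 86 rows was -0.50. Whether the low values of Snora73b and Snora78 followed their hosts was not tested. Snord87 of Snhg6 had a log2 difference of -0.65 (SE 0.29, edgeR adjusted p = 0.239), with 12 to 42 reads per library. The 8 snoRNA rows inside Snhg1, the only measure of that locus, summed to 16.0 to 27.0 CPM in total and 12.7 to 22.4 CPM in polysomal RNA, which overlapped, and 0 of the 8 passed in edgeR.

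HuD against control cells gave no call among the snoRNA hosts. In total RNA 0 of 8 passed, where 0.0% of all genes were called lower and 0.0% higher, and 0 of the 8 were under 0.05 unadjusted in edgeR, where 129 genes (0.865%) were lower and 265 (1.78%) higher, and DESeq2 called 1 gene, which was no member. The 8 log2 differences were all above 0, from 0.03 for Snhg3 to 0.21 for Gas5, as were 48.7% of all genes. Gas5 was the 1 member whose libraries did not overlap, with 208 and 217 CPM in control and 229.7 and 261 CPM in HuD cells, and 15.1% of all genes were higher without overlap. Its difference of 0.21 had a 95% confidence interval of -0.07 to 0.49, with an edgeR adjusted p = 1.00.

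The second total HuD library held more of every one of the 8 than the first. Without it, 5 of the 8 turned to the other side of 0, with Snhg3 at -0.34, Snhg6 at -0.07, Snhg5 at -0.06, Snhg9 at -0.04 and Snhg4 at -0.02. In that fit 53.5% of all genes were below 0. Leaving out a total control library also turned Snhg3 (-0.02, without the first) and Snhg8 (-0.02, without the second).

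In polysomal RNA 0 of 8 passed, where 0.0% of all genes passed either way, with 281 genes (1.89%) lower and 341 (2.29%) higher unadjusted, 0 of the members among them, and 3 genes and no member called by DESeq2. The members ranged from -0.46 (SE 0.48) for Snhg9 to 0.14 (SE 0.30) for Snhg8, and 5 were below 0, as were 51.6% of all genes. The intervals were widest for Snhg9, from -1.55 to 0.62, and narrowest for Gas5, from -0.17 to 0.40. These signs turned with single libraries. Without the first polysomal control library 1 of the 8 was below 0 (48.8% of all genes), without the second all 8 were (50.1%), and without the first polysomal HuD library 1 was (52.3%). Without the first polysomal control library 1 of the 8 was called in edgeR, Snhg8, which was higher by 0.94 on the log2 scale, where 1.71% of all genes were called higher.

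The change in translation efficiency, meaning the polysomal over total difference in HuD cells minus that in control cells, was also not called for any of the 8, nor for any gene in edgeR or DESeq2, with 85 genes (0.570%) lower and 61 (0.409%) higher unadjusted and no member among them. The values ran from -0.56 (SE 0.61) for Snhg9, -0.30 (SE 0.22) for Snhg4 and -0.26 (SE 0.22) for Snhg6 to 0.07 (SE 0.41) for Snhg8, and 7 of the 8 were below 0, as were 51.8% of all genes. This count was 3 without the first polysomal control library (49.7% of all genes), 4 without the second total HuD library (48.8%) and 6 without the second total control library (52.6%). It was 8 without the second polysomal control library (48.1%) or the first total control library (49.8%). For Gas5 the change was -0.10, with a 95% confidence interval of -0.50 to 0.30. These intervals bound the changes that 2 libraries per group could show, and do not show that the loading was alike.

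3′ end sequencing gave a separate count of the polyadenylated ends in control and HuD cells. None of the 7 members was called in it. With standard errors of up to 0.36 on the log2 scale (Gas5), this does not show that their levels were alike. The call shares were 0.0312% lower and 0.0208% higher of 9621 genes in edgeR, with 3.00% and 2.87% unadjusted, and DESeq2 called 35 genes and no member. In all 7 the control and HuD libraries overlapped, where 5.81% of genes were lower and 6.23% higher without overlap. Snhg8 had 523, 452 and 507 CPM in control and 585, 479 and 426 CPM in HuD libraries, with a log2 difference of 0.01 (SE 0.14). Snhg5 had 187, 151 and 224 CPM in control and 182, 129 and 184 CPM in HuD libraries, with the largest difference of the 7, -0.18 (SE 0.19). With the block on replicate numbers, which paired the 3′ end libraries, its unadjusted edgeR p was 0.0458 and its adjusted p = 0.257, where 10.1% of genes were lower unadjusted, and 1.22% were called lower and 1.04% higher.

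**Figure D4:**
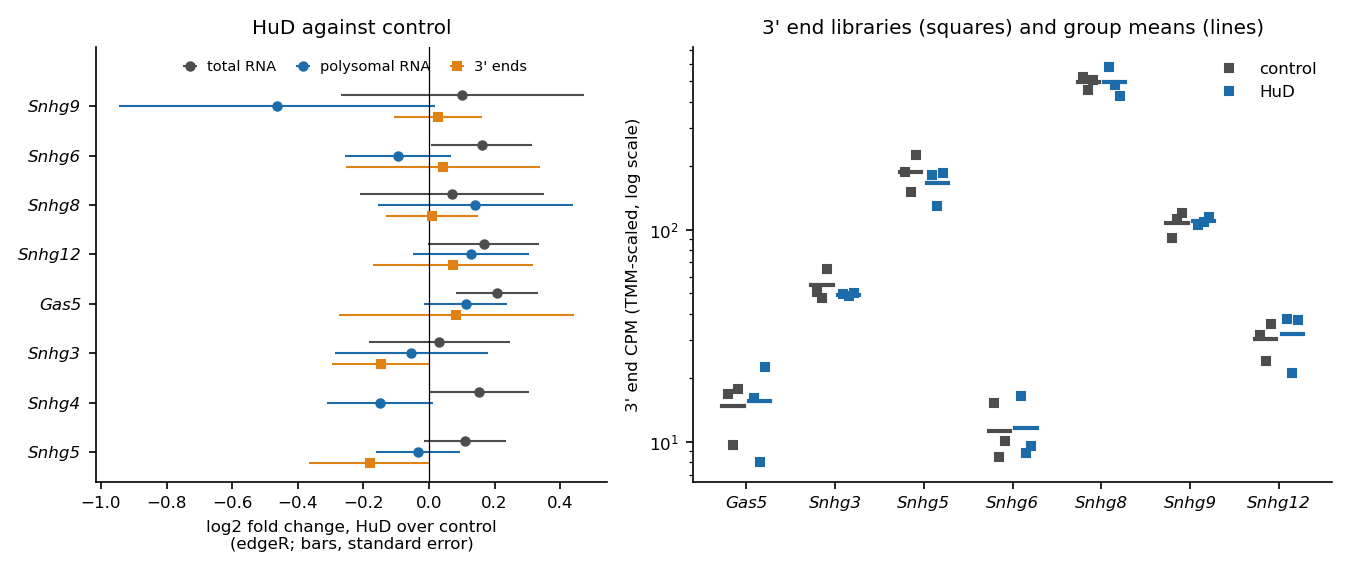
Left, log2 fold change of HuD over control cells for the snoRNA host genes in total RNA, polysomal RNA and 3′ ends, with standard errors of the edgeR fit, from -0.46 (Snhg9, polysomal) to 0.21 (Gas5, total). Right, CPM of 3′ ends in each library (squares, log scale) with means of 3 libraries (lines), in which control and HuD libraries overlap for all 7 genes.

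Gas5 had 16.7, 9.67 and 17.6 CPM of 3′ ends in control and 16.1, 8.03 and 22.6 CPM in HuD libraries. Ends listed a few bases apart had near-equal counts, such as 135 and 130 reads for the pair of Gas5 ends in the first control library, so a read may be counted at more than 1 end of a sum. Read at the strongest end alone, Gas5 (chr1:161038539) had 60 to 172 reads per library, Snhg8 (chr3:123507552) had 3413 to 4554 and Snhg9 (chr17:24719531) had 1419 to 1878. Snhg8 and Snhg9 thus had more reads at an end than Gas5 in every library. In total RNA of control cells, per kilobase of exon, the same genes were at 56.5 FPKM for Gas5, 55.8 FPKM for Snhg8 and 17.6 FPKM for Snhg9. The 2 kinds of value are set side by side without a test, since they rest on different libraries and features.

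Alternative ends were tested in the 5 members that had more than 1 listed end, and none was called for a change in usage in edgeR (0 of 5 under 0.05 unadjusted too). Of 3317 genes 0.0301% were called, and 0.181% were under 0.05 unadjusted. In Gas5, Snhg3, Snhg5 and Snhg8, however, all listed ends lay within 20 nt of each other. Reads were counted near each known site, so such ends can share most of their reads. The test therefore cannot decide whether end usage changed in these genes, and its result bears on Snhg6 alone. Snhg6 was also not called when ends within 20 nt were merged. Snhg6 was the member with 2 ends farther apart than 20 nt, at chr1:9941959 and chr1:9942023-9942025. With the near pair counted once, at its higher count, the share of the first was 56.9% ± 9.92 (SD, n = 3) in the control libraries. In the HuD libraries it was 54.2% ± 2.80 (SD, n = 3). With the counts of the pair summed, this share was 40.55% ± 9.21 (SD, n = 3) in the control libraries. In the HuD libraries it was then 37.6% ± 2.62 (SD, n = 3), so which end was the larger depends on how the pair is counted.

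CRAC windows were found in 2 of the 10 genes, and in Snhg6 only within the snoRNA of its intron. Snhg4, without an annotated span, was searched by symbol only. The share of all genes with a window was not computed. The counts of hosts with windows, here and below, are therefore not read as a trait of the hosts. Of the 2868 unique windows, each listed with 6 or more covering reads and 3 or more deletions in HuD cells and selected for its score against the authors' weight matrix, 3 lay in members. The table pools 3 libraries of each condition, so its values have no replicate error, and the depth behind them is unknown. The combined p-values of the 3 windows in the table were 0.105, 0.117 and 0.139, unadjusted.

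Snhg3 had a window in an exon, at chr4:132352180-132352186 on the - strand, covered by 26 HuD reads, of which 6 had a deletion, and by 0 control reads. It is shown with the bases beside it, from GENCODE vM21, with the window in capitals.

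Snhg3: cagcgugcuaaAAUUUUGucuguuacagc

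Snhg6 had no window of its own name, but 2 windows lay in Snord87, the box C/D snoRNA in its intron (chr1:9942463-9942549, - strand). The window UCUUUGA, at bases 50 to 56, had 70 covering reads and 4 deletions, and the window CGUUUAC, at bases 30 to 36, had 50 reads and 4 deletions, with 0 control reads in both. Both are in capitals in the whole snoRNA of 87 nt, which places them between the ends where the C and D boxes of such an RNA lie.

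Snord87: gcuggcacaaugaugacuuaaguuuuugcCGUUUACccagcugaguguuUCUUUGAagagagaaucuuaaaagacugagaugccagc

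Among the 12 other noncoding hosts 3 had 7 windows, and among the 40 protein coding hosts 14 had 41 windows, of which 9 overlapped snoRNAs of 2 hosts. Gas5, the member with the most RNA-Seq counts, had no window. A window listed needs enough reads in HuD cells, so its absence does not show that HuD did not bind.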

How the data were processed

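Per the study's methods, the authors aligned RNA-Seq and POL-Seq reads with STAR 2.5.3a to GRCm38.p4 and deposited raw counts per gene. For the 3′ ends they deposited counts of reads near known polyadenylation sites, a line per transcript, which were reduced here to 14536 unique ends. For CRAC, the authors aligned reads with TopHat2 2.0.14, pooled the replicates, and deposited per window the coverage (a signal in reads), the deletions, a combined p-value penalised for control reads, and a score against their positional weight matrix, for which windows had to pass a threshold and whose values were not analysed here. The library kits are stranded, and the strand counted is not given.

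Here, edgeR 4.0.16 in R 4.3.3 was run on the counts as deposited (TMM, filterByExpr, quasi-likelihood test, Benjamini-Hochberg over all genes tested, threshold 0.05). One fit to the 8 RNA-Seq and POL-Seq libraries held a mean for each of 4 groups, and the 6 3′ end libraries were fitted separately. For the use of alternative ends, the Simes p of diffSpliceDGE was taken per gene. Alternatives were DESeq2 1.42.0, other size factors, no filter, a replicate block, the 4 libraries of a comparison alone and leaving out each library in turn. FPKM divided TMM-scaled CPM by the exon length in GENCODE vM21. Tables and figures were made with Python 3.11.15, pandas 2.3.3 and matplotlib 3.10.9. The scripts were tested on simulated data. Samples were grouped by their labels. The study's methods call the replicates biological, while the labels do not say whether they are separate cultures. If they are not, p-values measure only the spread between these samples, which may be technical. Same-numbered 3′ end libraries deviated together (r = 0.400, 0.657 and 0.515 for numbers 1, 2 and 3) and were taken as pairs in the block.

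The genes named are the 10 hosts, the 2 genes highest and the 2 lowest on polysomes of each list, the 5 genes most like the hosts in log2(CPM + 0.5), and Elavl4; 1 gene that this rule names is not reported here. The hosts and lists were chosen with earlier results of these data known. Older symbols were matched through RefSeq.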

Additional observations from a re-analysis of the deposited data

How the results depend on the processing

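Of the comparisons above, polysomal against total RNA over both conditions called 351 genes and 8 snoRNA hosts. The hosts were 8 under every other setting that kept all libraries, while all genes came to 728 with DESeq2 and 1828 with the replicate block. In control cells the 26 genes became 67 with DESeq2, 41 with the block and 0 in the fit to the 4 libraries compared, which also called 0 hosts. In HuD cells the 80 genes became 229 with DESeq2, 416 with the block and 353 in the fit to the 4 libraries, and the 4 hosts became 7, 8 and 7. HuD against control called 1 gene with DESeq2 and 1 in the fit to the 4 libraries in total RNA, and 3 genes with DESeq2 in polysomal RNA. For the 3′ ends the 5 genes became 35 with DESeq2 and 217 with the block. The 1 gene with changed end usage became 0 when ends within 20 nt were merged. The cause of these shifts was not tested.

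The block on replicate numbers rests, in RNA-Seq and POL-Seq, on 2 shared numbers only. Deviations of same-numbered libraries correlated at 0.19 to 0.39 over the 6 pairs of groups. With it 3 hosts were called in control cells, and 0 in HuD against control cells in total RNA, polysomal RNA or translation efficiency.

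Without 1 library, all genes called over both conditions ranged from 59 to 3233 and hosts from 3 to 8. In control cells the ranges were 0 to 2145 genes and 0 to 7 hosts, and in HuD cells 0 to 411 genes and 0 to 8 hosts. HuD against control ranged from 0 to 1 genes in total RNA, 0 to 372 genes and 0 to 1 hosts in polysomal RNA, 0 to 47 genes for translation efficiency, 2 to 14 genes for 3′ ends and 0 to 1 genes for end usage. Over both conditions the count was 3233 without the first polysomal control library, 463 without the second and 59 to 113 without any 1 of the other 6. The 2145 genes in control cells and the 372 in polysomal RNA also came without the first polysomal control library.

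The log2 differences of HuD against control cells that changed sign included the largest in polysomal RNA and in translation efficiency, both of Snhg9. In total RNA the ranges without 1 library were -0.34 to 0.32 for Snhg3, -0.025 to 0.31 for Snhg4, -0.063 to 0.26 for Snhg5, -0.072 to 0.36 for Snhg6, -0.019 to 0.16 for Snhg8 and -0.043 to 0.23 for Snhg9. In polysomal RNA they were -0.0565 to 0.32 for Gas5, -0.26 to 0.14 for Snhg3, -0.33 to 0.013 for Snhg4, -0.15 to 0.074 for Snhg5, -0.24 to 0.063 for Snhg6, -0.32 to 0.94 for Snhg8, -0.999 to 0.86 for Snhg9 and -0.14 to 0.50 for Snhg12. For translation efficiency they were -0.27 to 0.11 for Gas5, -0.37 to 0.28 for Snhg3, -0.30 to 0.030 for Snhg5, -0.40 to 0.87 for Snhg8, -1.10 to 0.76 for Snhg9 and -0.30 to 0.33 for Snhg12. For 3′ ends they were -0.29 to 0.40 for Gas5, -0.23 to 0.0042 for Snhg3, -0.30 to 0.32 for Snhg6, -0.13 to 0.11 for Snhg8, -0.075 to 0.11 for Snhg9 and -0.072 to 0.31 for Snhg12. With the block the 3′ end difference of Snhg8 was -0.00085, and at the strongest end that of Snhg6 was -0.13.

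With 10 to 58 reads in a polysomal library, Snhg9 had the least depth behind its values among the 8 hosts.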
